A study of Mus musculus with 6 samples.

Results

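Genes of the matricellular family, taken with fibronectin, were followed in fibro-adipogenic progenitors (FAPs) that had received C1q or vehicle. They are the thrombospondin genes Thbs1, Thbs2 and Thbs3, the periostin gene Postn, the tenascin genes Tnc and Tnxb, Sparc and its relative Sparcl1, Tgfbi, and the fibronectin gene Fn1. They were listed by name, with earlier results of these data known, and all 10 of 10 were among the 16671 genes of the table. FAPs are stromal cells of mesenchymal origin found among the fibres of skeletal muscle. C1q is the recognition protein of the classical complement pathway. The title of the series places C1q signalling to these cells in the context of fibrosis in aged muscle. The cells came from hind limb muscle of wild-type mice aged 4 to 5 months and were purified by flow sorting. The extraction text of the labels names muscle stem cells instead, so the cell type was checked against markers. The control group received vehicle alone (3 libraries) and the other group received C1q at 100 µg/ml (3 libraries). The sources used here give no strain, exposure time, culture condition or vehicle, and do not say whether the libraries of a group came from separate mice. The p-values therefore measure only the spread between these libraries, which may be technical.

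Matricellular proteins are secreted into the matrix, where they change how cells attach to it and sense it more than they carry load. Thrombospondins bind cell surface receptors such as CD47 and CD36, and thrombospondin 1 can release TGF-beta from its latent complex. Periostin, tenascin-C and fibronectin form much of the provisional matrix laid down in injured muscle, and FAPs are a main source of it.

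Each library was made from 10 ng of total RNA. The libraries held between 24046020 and 38861152 reads on genes, apart from control replicate 3 with 5379209. Among markers of other cells, satellite cell genes were lower with C1q at 4 of 6 (summed level 2270 to 7008 in controls, 1600 to 1919 with C1q). Myofibre genes were lower at 2 of 5 (14679 to 56659 against 9975 to 15503), and tenocyte genes were higher at 3 of 5 and lower at 1 (2931 to 8727 against 18029 to 32149). Schwann cell genes were higher at 2 of 4 (76.5 to 133 against 199 to 223) and pericyte or smooth muscle genes at 1 of 5 (1365 to 1868 against 2082 to 2783). None of 5 endothelial genes (608 to 1287 against 572 to 1274) and none of the 3 measured immune genes (93.5 to 107 against 49.3 to 110) was called. FAP markers themselves were higher at 5 of 8 (110089 to 118121 against 190085 to 213567). In the same test, described below, 19.7% of all genes were higher and 18.7% lower. The largest part of the FAP sum was Gsn, at 59414 ± 2867 in the controls and 108771 ± 8889 with C1q (SD), and Ly6a, Cd34 and Col15a1 were not called. In the satellite cell list Pax7 and Myf5 were at or near 0 in every library (at most 7.58 and 17.0), while Myog stood at 718 to 2356 in controls and 438 to 528 with C1q. Myod1 stood at 451 to 1386 and 236 to 271, Cdh15 at 204 to 812 and 88.8 to 138, and Itga7 at 880 to 2442 and 834 to 988. Of the myofibre genes, Acta1 stood at 7792 to 30104 in controls and 5423 to 8581 with C1q. Myh1 stood at 4617 to 18812 and 3519 to 5352. These control levels reach those of the FAP marker Pdgfra, at 15908 to 24176 in controls and 31450 to 34035 with C1q. The part of other cell types in the results below was not tested, and in bulk RNA fewer cells of a type cannot be told apart from less RNA per cell.

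Of the 10 genes, 2 rose with C1q, Thbs1 and Postn, and 0 fell (limma-trend on log2(value + 1), Benjamini-Hochberg adjusted p below 0.05 over all genes). Of all genes tested 38.3% were called, made up of 19.7% higher and 18.7% lower, so the family's 2 higher genes of 10 are at the background share. The median log2 fold change was 0.26 over the 10 genes and 0.03 over all genes. By limma-trend 6 of 10 had an unadjusted p below 0.05, as had 7936 of all 16671 genes. With the replicate number as a block 4 of 10 were higher, Thbs2 and Sparcl1 in addition, and 0 lower (background 41.0%, of which 21.3% higher and 19.7% lower). With DESeq2 on the recovered reads 5 were higher (Thbs1, Thbs2, Postn, Sparcl1 and Fn1) and 1 lower (Tgfbi), against a background of 38.9%, with 19.7% higher and 19.3% lower. With edgeR and TMM scaling the count was 2 higher and 1 lower, Tgfbi again at an adjusted p of 0.0499 (background 48.6%, of which 23.4% higher and 25.1% lower). With RLE scaling in edgeR it was 2 higher and 0 lower, with Tgfbi at an adjusted p of 0.0543. In that fit 3405 of all genes were higher and 3493 lower. A version with the trend of the fold changes on transcript length removed gave 3 higher (Thbs1, Postn and Sparcl1) and 1 lower (Tnxb), against a background of 33.3%, with 14.6% higher and 18.7% lower. Control and C1q libraries did not overlap for Thbs1, Postn and Fn1, 3 of 10, against 52.1% of all genes. All of these 3 were higher with C1q, against 26.8% of all genes.

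**Figure D1:**
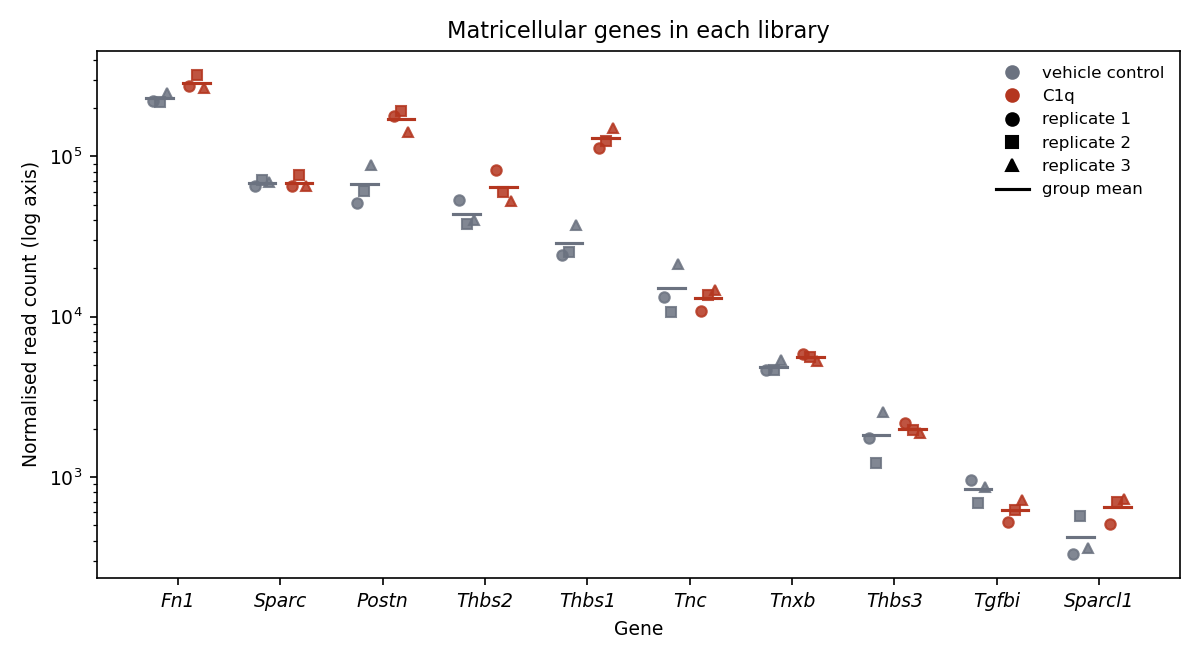
Normalised read count of the 10 genes (log axis) in each of 3 control libraries (grey) and 3 C1q libraries (red), with marker shapes for replicate numbers and bars for group means. The C1q libraries of Thbs1 (112986 to 150052) and Postn (140810 to 192285) lie above all controls, while Sparc stays between 64924 and 75855 in all 6.

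Thbs1 encodes thrombospondin 1, a secreted glycoprotein (Entrez gene 21825, on chromosome 2 from 118111876 to 118127133, with all positions given in GRCm38). Its normalised read count was 24125, 25120 and 37291 in the controls, in the order of replicates 1 to 3 that is kept below, and 112986, 124553 and 150052 with C1q. Every C1q library was above every control, by a margin larger than the spread within either group. The change was 4.54-fold (95% confidence interval 3.26 to 6.31), a log2 fold change of 2.18 ± 0.20 (SE, n = 3 per group) with a limma adjusted p of 3.43e-04. Thbs1 went from rank 51 to 88 among all genes of the control libraries, by normalised read count, to rank 6 to 14 of the C1q libraries. It was called under every alternative tried, with log2 fold changes between 1.86 and 2.38.

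Thbs2 encodes thrombospondin 2, the closest relative of thrombospondin 1 (Entrez gene 21826, chromosome 17, 14665500 to 14694262). It stood at 53166, 37896 and 39837 in the controls and at 81783, 59848 and 52374 with C1q. The groups overlapped, because C1q replicate 3 lay just under control replicate 1. The change was 1.47-fold (1.05 to 2.06) and missed the threshold (limma adjusted p 0.0682), while with the replicate block the adjusted p was 0.0104 and with DESeq2 0.00700. Without control replicate 1 it was called higher (log2 fold change 0.71, adjusted p 0.0398). Removing the length trend took the log2 fold change from 0.56 to 0.23 (adjusted p 0.432).

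Thbs3, which encodes a further thrombospondin (Entrez gene 21827, chromosome 3, 89215180 to 89226841), was the lowest of the trio. Its values were 1755, 1218 and 2534 in the controls and 2168, 1954 and 1883 with C1q. The controls spread over a wider range than the C1q libraries and enclosed them. The fold was 1.14 (0.78 to 1.66, adjusted p 0.565), and without control replicate 2 the log2 fold change moved from 0.19 to -0.08. Exons of Mtx1 on the opposite strand share 318 bases (6.59%) with the Thbs3 exons, and no source used here says whether counting used strand, so some Thbs3 reads may belong to Mtx1. Thbs1, Tnc, Tnxb and Fn1 share 3.43% or less of their exon bases with opposite-strand genes.

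Postn encodes periostin, a secreted adhesion protein built of fasciclin domains that binds integrins and collagen (Entrez gene 50706, chromosome 3, 54359267 to 54391041). It stood at 50971, 61092 and 88618 in the controls and at 178814, 192285 and 140810 with C1q. The groups were separate, with control replicate 3 the highest control and C1q replicate 3 the lowest C1q library. The change was 2.60-fold (1.76 to 3.84), a log2 fold change of 1.38 ± 0.24 (SE) with a limma adjusted p of 0.00363. It was called under all alternatives, with log2 fold changes of 1.12 to 1.60.

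Tgfbi, the TGF-beta-induced gene, encodes the other fasciclin-domain protein of the matrix (Entrez gene 21810, chromosome 13, 56609586 to 56639359). It stood at 962, 687 and 859 in the controls and at 521, 624 and 714 with C1q. The C1q libraries were lower on average, but C1q replicate 3 was above control replicate 2. The fold of 0.74 (0.58 to 0.95) missed the threshold, at an adjusted p of 0.0621, and passed it with DESeq2 at 0.0342. Without control replicate 2 it was called lower (log2 fold change -0.56 in place of -0.43, adjusted p 0.0242).

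Promoters of Postn and Thbs2 from RefSeq (GRCm38.p6) are shown as 250 bases before the annotated start, since these windows hold a TATA box motif upstream of a gene that was called and of one that was not. Of the 10 genes 7 have an entry, with 9 starts. Thbs1, Sparcl1 and Fn1 have none. The TATA box was searched as TATAAA on both strands. The AP-1 motif was searched likewise as TGANTCA and the motif of TEAD factors as GGAATG. For TCF/LEF factors the letters were CTTTGAT and for the SMAD palindrome GTCTAGAC, and matches are in capitals. For Postn the downstream of its 2 annotated starts is shown (plus strand, chr3:54360857-54361106) and for Thbs2 the minus strand of chr17:14694263-14694512.
Postn: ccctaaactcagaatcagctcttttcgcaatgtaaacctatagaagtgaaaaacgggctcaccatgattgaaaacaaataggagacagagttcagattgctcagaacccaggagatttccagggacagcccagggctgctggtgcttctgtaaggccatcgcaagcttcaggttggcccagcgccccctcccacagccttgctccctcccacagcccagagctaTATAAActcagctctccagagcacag
Thbs2: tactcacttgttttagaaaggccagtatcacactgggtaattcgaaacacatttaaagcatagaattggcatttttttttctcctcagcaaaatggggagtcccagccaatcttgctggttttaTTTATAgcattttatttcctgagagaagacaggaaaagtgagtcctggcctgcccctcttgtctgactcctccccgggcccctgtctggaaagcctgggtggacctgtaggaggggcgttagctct
The Postn window holds TATAAA 26 bases before the start, and the Thbs2 window holds its reverse complement 126 bases before. The windows of Tgfbi, Sparc, Thbs3 and the upstream start of Postn hold none of these motifs. Of all 32851 promoters of that length 12.4% hold the TATA box motif, 6.75% that of AP-1, 12.6% that of TEAD, 3.21% that of TCF/LEF and 0.167% the SMAD palindrome. Among the other windows, Tnxb held the AP-1 motif TGAGTCA 55 bases before its start. The 2 Tnc windows overlap and held the same TATAAA site, 126 bases before one start and 205 before the other. Only exact letters were searched, so the stretch tatataag, near the end of the window with the site at 205, was not counted. Whether any of these sites acts in these cells was not tested.

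Tnc encodes tenascin-C, a large glycoprotein of provisional and tendon matrix (Entrez gene 21923, chromosome 4, 63959785 to 64047015). It stood at 13274, 10609 and 21260 in the controls and at 10818, 13655 and 14610 with C1q. Control replicate 3 was the highest of the 6 libraries, and the groups overlapped. The fold was 0.90 (0.60 to 1.33, adjusted p 0.648), and without control replicate 3 the log2 fold change moved from -0.16 to 0.12. Removing the length trend gave -0.58 (adjusted p 0.0930), and with the block added Tnc was called lower (0.0258).

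Tnxb encodes tenascin-X, which binds collagen fibrils (Entrez gene 81877, chromosome 17, 34660453 to 34719815). It stood at 4648, 4648 and 5331 in the controls and at 5881, 5629 and 5278 with C1q. The spread was narrow, and C1q replicate 3 lay below control replicate 3. The fold was 1.15 (1.01 to 1.31, adjusted p 0.0896), and it was called higher without control replicate 3 (adjusted p 0.0238). Tnxb has the longest transcript of the 10 genes, 12209 bases. With the length trend removed its log2 fold change turned from 0.20 to -0.42, with an adjusted p of 0.0147, so its direction rests on that choice.

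Sparc encodes osteonectin, a collagen-binding protein with a part in fibril assembly (Entrez gene 20692, chromosome 11, 55394159 to 55420080). It stood at 64992, 71057 and 69284 in the controls and at 64924, 75855 and 64980 with C1q. The group means were nearly equal, 68445 ± 3119 and 68586 ± 6295 (SD, n = 3). The fold was 1.00 with a 95% confidence interval of 0.81 to 1.24, so a change of the size seen for Thbs1 or Postn lies outside that interval.

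Sparcl1 encodes hevin, the counter-adhesive relative of osteonectin (Entrez gene 13602, chromosome 5, 104079108 to 104114088). It stood at 331, 571 and 361 in the controls and at 509, 693 and 732 with C1q. Control replicate 2 was above C1q replicate 1, so the groups overlapped. The fold of 1.56 (1.08 to 2.24) missed the threshold (adjusted p 0.0576), and passed it with the replicate block (0.0127), DESeq2 (0.0240) and the length trend removed (0.0440). Control replicate 3 had only 85 reads of this gene, and without control replicate 2 it was called higher (log2 fold change 0.88 in place of 0.64, adjusted p 0.00904), as it was without C1q replicate 1 (0.80, adjusted p 0.0451).

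Fn1 encodes fibronectin, the glycoprotein on which many matrix proteins assemble (Entrez gene 14268, chromosome 1, 71585473 to 71653280). It stood at 222153, 218933 and 247885 in the controls and at 275687, 322612 and 266767 with C1q. All C1q libraries were above all controls, although the margin was small. The fold of 1.25 (0.88 to 1.78) missed the threshold in limma-trend (adjusted p 0.280), while DESeq2 gave an adjusted p of 0.00829. Removing the length trend took the log2 fold change from 0.33 to -0.17 (adjusted p 0.605). By normalised read count Fn1 ranked between 2 and 5 among all genes in every library.

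**Figure D2:**
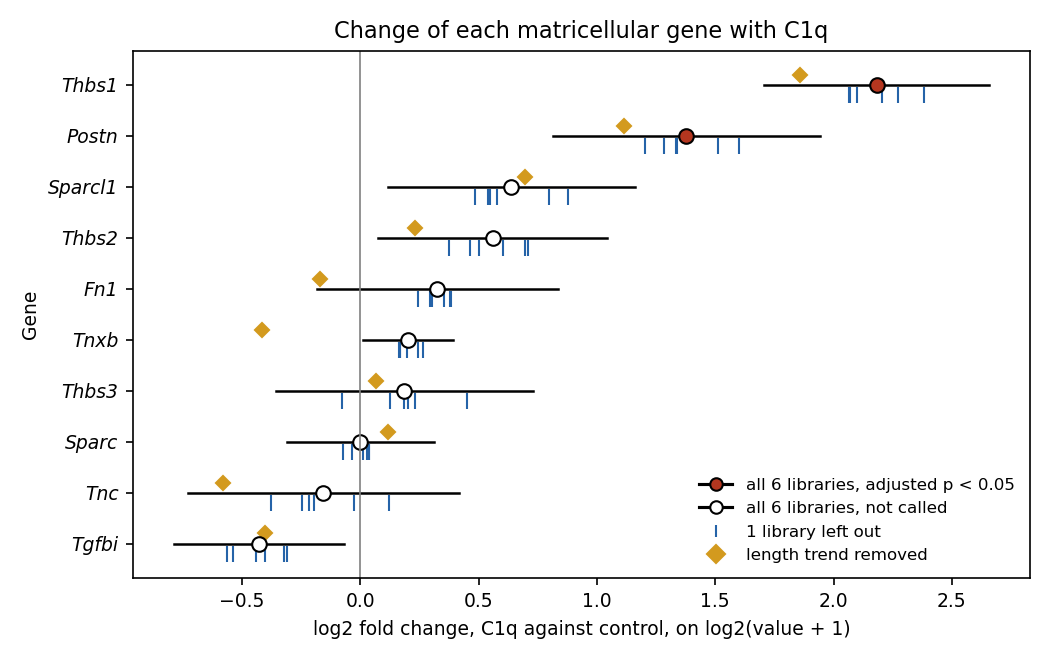
Log2 fold change of each gene on the log2(value + 1) scale with its 95% confidence interval (filled points: adjusted p below 0.05), the values with 1 library left out (blue ticks) and the value with the length trend removed (diamonds). Thbs1 (2.18) and Postn (1.38) are above 0 in all of them, and Tnxb and Fn1 are below 0 only with the length trend removed.

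On a scale of normalised read count per kilobase of the longest transcript, which allows levels of different genes to be compared, Sparc and Fn1 led the controls at 29758 ± 1356 and 27620 ± 1908. Their ranges overlapped. Postn (12808 ± 3730), Thbs2 (7402 ± 1410), Thbs1 (4933 ± 1254) and Tnc (2118 ± 780) followed, each with a range separate from its neighbour's. The gap between Thbs2 (lowest control 6428) and Thbs1 (highest control 6377) was narrow. Thbs3 and Tnxb overlapped at 455 ± 164 and 399 ± 32.3, and Tgfbi (278 ± 46.2) and Sparcl1 (153 ± 47.5) were the lowest. With C1q the ranges of Fn1 (34679 ± 3608), Postn (32670 ± 5111) and Sparc (29820 ± 2737) overlapped from neighbour to neighbour, and Thbs1 came next at 22093 ± 3243. In the order of levels Thbs1 thus stood below Thbs2 in the controls and above it with C1q, where Thbs2 was at 10970 ± 2593. The 10 genes together took 1.91% to 2.24% of the normalised reads of the control libraries and 3.13% to 3.40% of the C1q libraries. Thbs1 accounted for 0.107% to 0.163% and then 0.502% to 0.674%, and Postn for 0.225% to 0.388% and then 0.632% to 0.820%.

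**Figure D3:**
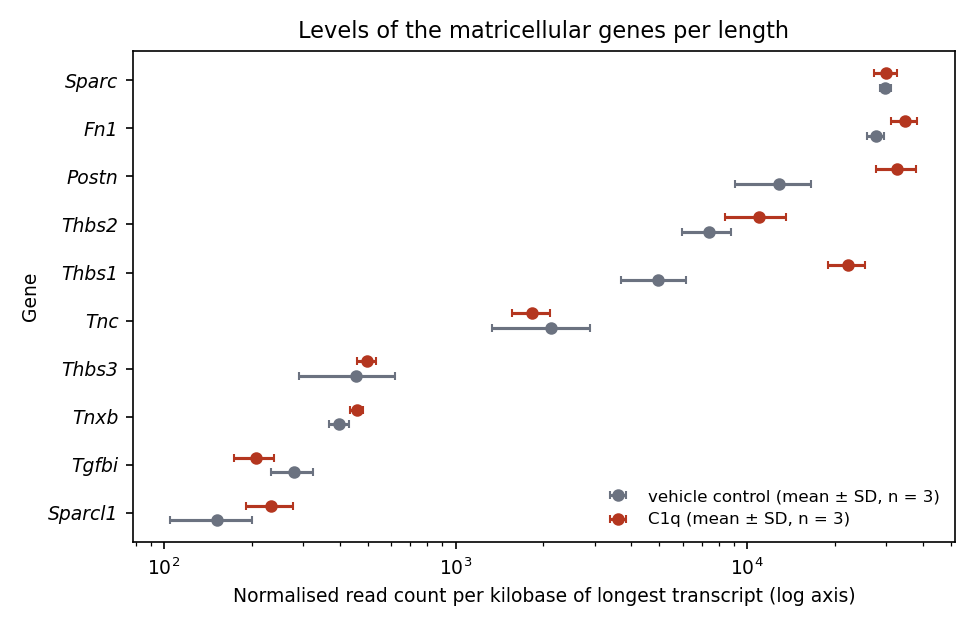
Normalised read count per kilobase of the longest transcript (log axis, mean ± SD, n = 3) for the 10 genes in control (grey) and C1q (red) libraries. Thbs1 moves from 4933 to 22093 and passes Thbs2, and Postn moves from 12808 to 32670.

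Whether related genes changed by different amounts was tested on their ratio within each library, for 5 pairs. Thbs1 was at 0.454, 0.663 and 0.936 times the normalised read count of Thbs2 in the controls and at 1.38, 2.08 and 2.87 times with C1q. Thbs1 was thus below Thbs2 in all 3 control libraries, narrowly so in control replicate 3, and above it in all 3 C1q libraries. The difference between groups was 3.08-fold. The ratio of Thbs1 to Thbs3 went from 13.8, 20.6 and 14.7 to 52.1, 63.7 and 79.7, and that of Postn to Tgfbi from 53.0, 88.9 and 103 to 343, 308 and 197. These 3 ratios did not overlap between groups. Each had a p of 0.1 in a two-sided exact permutation test, and 3 against 3 libraries cannot give a smaller value (0.167 adjusted over the 5 ratios). That test did not pair the libraries. With them paired by replicate number, a sign-flip test gave each of these 3 ratios a p of 0.25, and 3 pairs cannot give a smaller value. The ratios of Tnc to Tnxb (log2 difference -0.36, exact permutation p 0.4) and of Sparc to Sparcl1 (-0.64, exact permutation p 0.2) overlapped between groups.

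**Figure D4:**
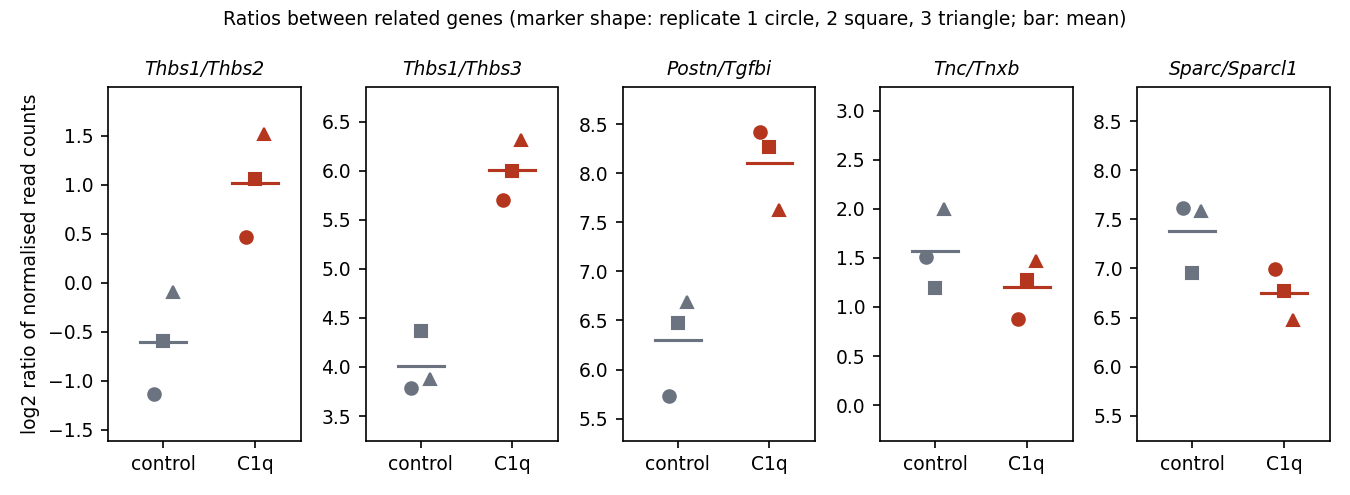
Log2 ratio of normalised read counts for 5 pairs of related genes in each library (3 control, 3 C1q), bars marking group means, all panels with the same span of the axis. The group means of Thbs1/Thbs2, Thbs1/Thbs3 and Postn/Tgfbi are 1.62, 2.00 and 1.81 higher with C1q, with no overlap.

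Other matricellular genes were described from a list of 23, of which 22 were measured: 8 were higher and 1 was lower, with a median log2 fold change of 0.50. These are 36.4% and 4.55% of the list, beside 19.7% higher and 18.7% lower among all genes (median 0.03). Without C1q replicate 3 the count of higher genes was 5, and that over all genes was 2340 in place of 3277. The largest rise was that of Ccn3, a CCN-family regulator of adhesion, from 3183 ± 239 to 17043 ± 2115 (SD, n = 3), a log2 fold change of 2.42 with an adjusted p of 7.90e-05. Its control libraries reached at most 3405, and its C1q libraries started at 15238. Ccn4 rose from 2882 ± 321 to 4773 ± 399 (adjusted p 0.00127), and Ccn2, which encodes connective tissue growth factor, from 5875 ± 597 to 8263 ± 1147 (adjusted p 0.0156). The Ccn2 call was lost without C1q replicate 1 (adjusted p 0.0514) or C1q replicate 3 (adjusted p 0.0527). Comp, the cartilage oligomeric matrix protein, itself a thrombospondin, rose from 8898 ± 4282 to 29061 ± 6937, by 1.78 on the log2 scale (adjusted p 0.00358), and the fibulin gene Fbln1 from 12202 ± 2381 to 20448 ± 496. Spp1, which encodes osteopontin, was the only gene of the list called lower by limma-trend, from 40069 ± 13203 to 5709 ± 1727, which is -2.79 on the log2 scale (adjusted p 4.75e-04).

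The remaining thrombospondin, Thbs4, and the CCN-family gene Ccn1 were singled out after their values were seen. Thbs4, a thrombospondin of tendon and muscle, stood at 6709, 11910 and 27050 in the controls and at 28969, 26704 and 65673 with C1q. Control replicate 3 was just above C1q replicate 2. The log2 fold change of 1.52 was not called (adjusted p 0.0556), and was called with the replicate block (0.00128). Ccn1 stood at 5228, 5288 and 5250 and at 5521, 5096 and 5460, with a log2 fold change of 0.03 (adjusted p 0.762). In limma-trend without the block the thrombospondin genes called were Thbs1 and Comp, and with the block Thbs2 and Thbs4 were called too. Thbs3 was called in neither fit. Comp and Thbs4 are expressed in tendon. The tenocyte markers given above did not move together. Tnmd, Kera and Fmod were called higher, and Mkx was not called. Scx was called lower, from 358 ± 55.4 to 156 ± 37.9 (SD, limma adjusted p 0.00248). Most of the tenocyte sum was Fmod, at 5067 ± 2702 in the controls and 21079 ± 5898 with C1q. The part of tendon cells was not tested.

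Receptors of these proteins formed a list of 20, with 6 higher and 2 lower (median log2 fold change 0.27). That is 30% and 10%, beside 19.7% and 18.7% of all genes. Without C1q replicate 1 the count of higher genes was 3, and that over all genes was 2389 in place of 3277. With the length trend removed 3 were higher and 4 lower, beside 14.6% higher and 18.7% lower among all genes. Itga9, whose integrin binds tenascin-C and osteopontin, rose from 764 ± 108 to 1710 ± 67.7, by 1.17 on the log2 scale (adjusted p 3.04e-04). Itgav, the alpha-v chain that pairs with several beta chains to bind fibronectin, periostin and thrombospondin 1, rose from 3399 ± 219 to 5347 ± 268 (adjusted p 6.18e-04). Itga5, the alpha chain of the classical fibronectin receptor, fell from 5490 ± 383 to 3739 ± 241 (log2 fold change -0.55, adjusted p 0.00159). These integrin calls held under all alternatives. With the length trend removed, however, the log2 fold change of Itgav fell from 0.65 to 0.24 and that of Itga9 from 1.17 to 0.75. That of Itga5 was then -0.72. Calr, encoding calreticulin, through which thrombospondin 1 signals with LRP1, fell from 19457 ± 2162 to 13772 ± 1051 (adjusted p 0.00959). Lrp1, named after its values were seen, was called higher, from 63899 ± 8584 to 98555 ± 1926 (adjusted p 0.0128), but its log2 fold change was -0.0077 in place of 0.63 once the length trend was removed. Cacna2d1, a calcium channel subunit that binds thrombospondins, was called higher at 0.44 (adjusted p 0.00216), but its log2 fold change was -0.0024 with the length trend removed. The thrombospondin 1 receptor genes Cd47 and Cd36, named after their values were seen, stood at 1086 ± 105 and 1220 ± 99.4, and at 982 ± 430 and 1548 ± 720. Neither was called (adjusted p 0.205 and 0.320).

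Matrix proteins and enzymes that bind or process the matricellular proteins were higher at 8 of 12 and lower at 0 (median 0.87). Among all genes 19.7% were higher and 18.7% lower. With the length trend removed 5 of the 12 were higher, beside 14.6% of all genes. Col12a1, a collagen that tenascin-X binds, rose from 3819 ± 1395 to 20523 ± 4339, by 2.47 on the log2 scale (adjusted p 5.25e-04), and Col14a1, a related collagen, from 5864 ± 3381 to 23042 ± 3487 (2.15, adjusted p 0.00508). Eln (elastin) rose from 3865 ± 643 to 15100 ± 1828, Col6a1 from 23163 ± 5370 to 50687 ± 5121, and Col5a1 from 29802 ± 1023 to 59161 ± 12923 (adjusted p 1.96e-04 to 0.00320). The Col5a1 call was lost when the length trend was removed (log2 fold change 0.46, adjusted p 0.0686). Col1a1 was called (0.77, adjusted p 0.0287), and the call was lost on leaving out replicate 1 or 2 of either group (adjusted p 0.0548 to 0.0905) and with the length trend removed (0.191).

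Genes of the TGF-beta axis were higher at 6 of 14 and lower at 1 (median 0.36), and with the length trend removed at 3 and 2. The shares of all genes were 19.7% higher and 18.7% lower, and 14.6% and 18.7% with the length trend removed. Ltbp2 and Ltbp4, latent TGF-beta binding proteins of the matrix, rose from 5569 ± 1295 to 16663 ± 2407 and from 710 ± 81.9 to 1768 ± 179 (adjusted p 6.76e-04 and 2.59e-04). The receptor genes Tgfbr1 (0.52) and Tgfbr2 (0.79) were called higher, but not with the length trend removed (adjusted p 0.0837 and 0.0775). Tgfb1, encoding the ligand that thrombospondin 1 can release, fell from 1873 ± 237 to 1213 ± 150 (log2 fold change -0.63, adjusted p 0.00536). The genes that follow were named after their values were seen. Tgfb3 was called higher, from 2409 ± 548 to 3792 ± 484 (limma adjusted p 0.0195, and 0.0245 with the length trend removed). Tgfb2, Smad7, Skil and Pmepa1 were not called (limma adjusted p 0.113, 0.0673, 0.286 and 0.973).

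**Figure D5:**
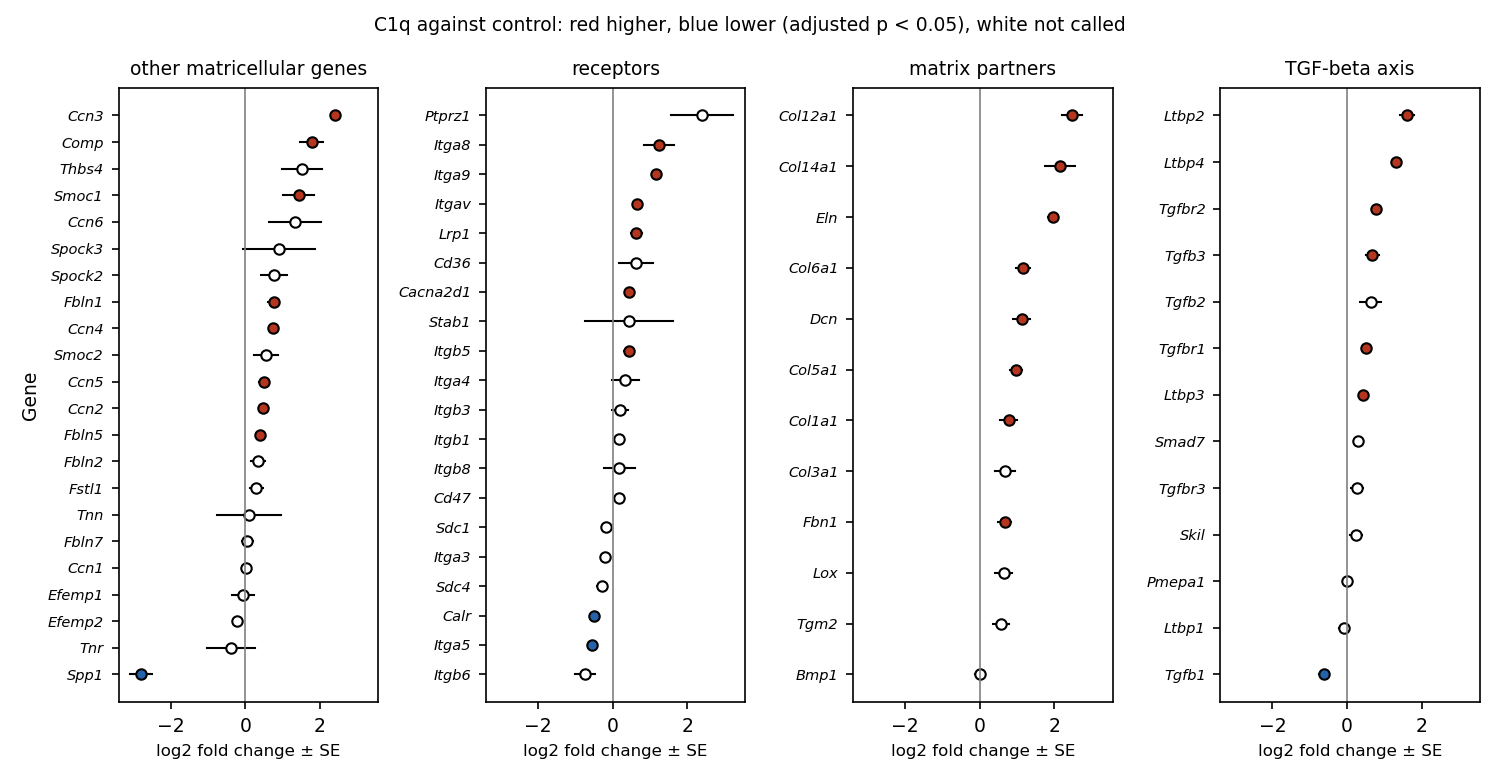
Log2 fold change ± SE on the log2(value + 1) scale for measured genes of 4 lists, 1 gene of the TGF-beta axis not shown, with red points higher, blue points lower and white points not called (adjusted p below 0.05). Ccn3 (2.42) and Spp1 (-2.79) mark the extremes among the other matricellular genes, and Itga5 (-0.55) and Calr (-0.50) are the receptors called lower.

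The genes whose log2(value + 1) followed Thbs1 most closely over the 6 libraries, among 10661 genes with a mean of at least 100, were Kmt2c, Sp4, Rai2, Parp4 and Itprid2. Their Pearson correlation with Thbs1 was 0.998 to 0.999, given as a description with no test, since the 6 libraries fall into 2 groups. Their log2 fold changes were 0.79 to 1.14, smaller than that of Thbs1. Kmt2c, which encodes a histone methyltransferase, stood at 831, 835 and 1008 in the controls and at 1781, 1964 and 2137 with C1q.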

How the data were processed

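RNA was measured by low-input sequencing in 3 control and 3 C1q libraries. The deposited values are a normalised signal: each library's reads per gene, scaled by that library's size factor, under column names that speak of featureCounts counts, per the file headers. The submitters' processing notes list Trimmomatic, HISAT2, featureCounts, DESeq2 and mm10, without versions. Whole reads were recovered for 100% of values, within 0.001 of a read. Symbols came from RefSeq (GRCm38.p6, 16077 of 16671 IDs) and lengths of the longest transcript from GENCODE vM21 (14933 IDs).

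The main test, limma-trend (limma 3.58.1, R 4.3.3), used log2(value + 1). A minimum mean of 1 took away 0 genes. Such fold changes understate the change of low genes. The members, the 4 gene lists and the markers were chosen with earlier results of these data known. The rule named all 10 members, the 5 genes of lowest p in each list, Spp1, Ccn2 and Col1a1, and the 5 genes most like Thbs1. A further gene it named is not reported here. Alternatives used edgeR 4.0.16, DESeq2 1.42.0, limma-voom, other pseudocounts and filters, array weights, thinning to the 5379209 reads of the shallowest library, removal of a loess trend on transcript length (span 0.5), the replicate block, and each library left out.

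Same-numbered libraries deviated together from their group means, but weakly (correlations over genes of 0.123, 0.175 and 0.132). In the fits with the replicate block the numbers were therefore taken to pair them, from the data and not from the labels. Correlations between libraries of different numbers were not computed. The block was chosen from the same values that were then fitted, so calls it added are not independent of that choice. The main test, its confidence intervals and the exact permutation test did not use this pairing. Replicates of a group differed by more than sampling noise (chi-square per degree of freedom 14.7 to 37.5).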

Additional observations from a re-analysis of the deposited data

How the results depend on the processing

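Thbs1 and Postn were called higher under all 19 alternatives, 6 of which left out 1 library. The count of the 10 genes called higher was 2. It was 5 with DESeq2 and 4 with array weights, with thinning and with the replicate block. It was 3 with limma-voom and with the length trend removed, alone or with the block. The count over all genes moved too, from 3277 higher to 3280 with DESeq2, 3753 with array weights, 2552 with thinning and 3548 with the block. With limma-voom it was 3575, and with the length trend removed 2184 alone and 2444 with the block. The count called lower was 0, and was 1 with edgeR and TMM, DESeq2, array weights or the length trend removed, and 2 with the length trend removed in the paired fit. Over all genes 3112 were lower in the main test, and in these fits 3595, 3212, 3660, 2795 and 3024, in that order. Leaving out 1 library gave 2 to 3 higher and 0 to 1 lower. Among all genes it gave 2329 to 3659 higher and 2259 to 3583 lower. Among the 10 members the replicate block changed the call of Thbs2 and Sparcl1 and no other. In the 4 lists it added calls at Thbs4, Smoc2, Sdc4, Ptprz1, Tgm2, Lox and Tgfb2 and took none away.

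With the length trend removed, alone and with the block, receptors gave 3 higher and 4 lower and the TGF-beta axis 3 higher and 2 lower. Matrix partners gave 5 higher with the trend removed alone, and 2184 of all genes were higher in place of 3277. The other matricellular genes gave 2 lower with limma-voom, where 3798 of all genes were lower. With 1 library left out the other matricellular genes gave 5 to 10 higher, the receptors 3 to 6, and all genes 2329 to 3659.

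With the length trend removed the direction turned for Cacna2d1 and Lrp1, called genes of the lists. The other turns below are of genes that were not called. With the length trend removed, alone or with the block, the log2 fold change was -0.42 for Tnxb, -0.17 for Fn1 and -0.0024 for Cacna2d1. Alone it gave -0.0077 for Lrp1. Sparc, at 0 in the main test, was at -0.0149 with edgeR and TMM, -0.0044 with RLE and -0.0187 with limma-voom, and at -0.0745 to 0.0377 with 1 library left out. Leaving out 1 library gave -0.0776 to 0.45 for Thbs3 and -0.38 to 0.12 for Tnc. The cause was not tested. Depth limits low genes in control replicate 3, where Sparcl1 had 85 and Tgfbi 202 reads.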
